A study of Mus musculus with 4 samples.

Results

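The collagen genes of the mouse were followed in RNA sequencing of a coronal brain section that included the prefrontal cortex. They were chosen by name, as every gene whose symbol is Col, a type number, the letter a and a chain number, and 44 of the 33981 genes in the joined tables met this rule. They comprise 11 fibrillar, 8 basement membrane and 25 other collagens. All groups were male C57BL/6J mice aged 3 to 5 months that carried an implanted pump and underwent surgery on day 7, and tissue was collected on day 28. NT + Sham mice received saline vehicle and sham surgery, and NT + Stroke mice received vehicle and photothrombotic stroke aimed at the prefrontal cortex, in which light and a photosensitive dye close cortical vessels. HT + Sham and HT + Stroke mice were infused over the 28 days with angiotensin II, a peptide that raises blood pressure, at a dose of 0.28 mg/kg/day, and had sham surgery or stroke. The model delivers angiotensin II to the whole body, so that raised pressure and direct effects of the peptide cannot be told apart. A section of a stroke brain may hold infarct, scar, overlying membranes and intact brain together, and the sources used here do not say which. The tables number 6 libraries in each of the 4 groups. Nothing in the labels says that these came from separate mice, so *P* values measure the spread between these libraries.

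Collagens are triple helices of 3 α chains, each encoded by its own gene. Fibrillar collagens such as types I, III and V assemble into the tensile fibrils of scars and connective tissue. Type IV forms the sheet-like network of basement membranes, which in brain line every vessel and the glia limitans, and types XV and XVIII sit at the same membranes and carry anti-angiogenic fragments at their C-terminal ends. The remaining classes decorate fibrils (the fibril-associated collagens, or FACITs), form beaded filaments (type VI), short networks and anchoring fibrils (types VIII, X and VII) or span the cell membrane. Healthy brain parenchyma holds little fibrillar collagen outside the meninges and large vessels, and after injury fibroblasts of the meninges and vessel walls are a known source of it.

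Sequences just upstream of the RNA start are shown for members of each class, since the members are compared below by how they moved. They are those that rose most after stroke in NT mice among members with only 1 upstream window, free of annotated exons. Some members that rose more did not meet this rule. For example, Col1a1, Col1a2 and Col5a2 rose more than Col27a1, and Col18a1 rose more than Col4a6. RefSeq (GRCm38.p6) gave promoter windows for 35 of the 44 genes, and 20 of their 38 windows of 250 bases were free of exons in GENCODE. Capitals mark a match to 1 of 4 motifs, each searched on both strands. The TATA box was searched as TATAAA. The CCAAT box was searched by the letters of its name. The GC box was searched as GGGCGG, or CCGCCC on the other strand. The AP-1 motif, searched with any base at its centre, was the last. The window of Col3a1 is chr1:45311288-45311537 on the plus strand, directly before the annotated start of the gene. That of Col27a1 is chr4:63215162-63215411 on the plus strand, inside the annotated gene span. That of Col4a6 is chrX:141474077-141474326 on the minus strand, in the 1308 bases that separate its start from that of Col4a5, which is transcribed the other way. That of Col6a3 is chr1:90843972-90844221 on the minus strand.
Col3a1: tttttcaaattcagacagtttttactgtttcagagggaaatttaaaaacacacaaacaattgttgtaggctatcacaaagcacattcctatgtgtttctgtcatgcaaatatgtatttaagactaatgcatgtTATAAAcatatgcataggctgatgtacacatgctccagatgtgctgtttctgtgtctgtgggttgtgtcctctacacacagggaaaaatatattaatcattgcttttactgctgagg
Col27a1: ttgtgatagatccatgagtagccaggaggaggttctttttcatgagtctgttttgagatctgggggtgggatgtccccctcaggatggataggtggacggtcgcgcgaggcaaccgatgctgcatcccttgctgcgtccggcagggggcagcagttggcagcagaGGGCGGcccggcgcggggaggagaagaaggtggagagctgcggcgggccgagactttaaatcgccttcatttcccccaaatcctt
Col4a6: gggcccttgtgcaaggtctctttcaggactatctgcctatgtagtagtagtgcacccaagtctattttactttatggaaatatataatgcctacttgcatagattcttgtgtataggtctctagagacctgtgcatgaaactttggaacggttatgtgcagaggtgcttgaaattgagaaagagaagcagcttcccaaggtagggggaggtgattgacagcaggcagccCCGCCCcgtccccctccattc
Col6a3: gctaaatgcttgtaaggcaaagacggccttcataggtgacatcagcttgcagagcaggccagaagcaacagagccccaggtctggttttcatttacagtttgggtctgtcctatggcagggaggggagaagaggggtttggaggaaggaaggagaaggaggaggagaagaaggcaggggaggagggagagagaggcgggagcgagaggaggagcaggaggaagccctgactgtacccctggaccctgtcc

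The window of Col3a1 held a match to the TATA box that began 117 bases before the RNA start. Those of Col27a1 and Col4a6 each held a GC box, which began 85 and 21 bases before their starts, and that of Col6a3 held none of the 4 motifs. Over all member windows, a GC box was found in 6 of 8 fibrillar, 4 of 8 basement membrane and 12 of 22 other windows, against 32.7% of the 32851 RefSeq mouse promoter windows of the same length. A CCAAT box was found in 3 of 8, 4 of 8 and 6 of 22 windows, against 33.8% of all windows. A TATA box was found in 2 of 8, 0 of 8 and 3 of 22, against 12.4%. The AP-1 motif (TGANTCA) was found in 1 window, of the other class, against 6.75% of all windows. The windows are few and some belong to 1 gene, so these shares are a description of letters only.

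The total count per library was 15922919 to 24865998, and the libraries that occurred in more than 1 table held the same values in each. Levels within a gene are given as CPM, a gene's counts relative to all counts of its library, scaled with edgeR's TMM factors, and levels between genes as FPKM, which also divides by gene length. Adjusted *P* is from the quasi-likelihood test of edgeR, corrected by Benjamini and Hochberg's method across every gene that entered the fit, and a gene was called at an adjusted *P* under 0.05. Some libraries stood apart from their group on collagens. Library 6 of HT + Sham was the highest of its group in 15 of the 26 members called in NT + Stroke vs NT + Sham, and library 1 of HT + Stroke was the lowest in 18 of them. Library 6 of HT + Stroke held 142.8 CPM of summed skeletal muscle and skin markers, against a median of 16.7 CPM in its group. The part of that RNA in the results was not tested.

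In NT + Sham brain, *Col6a1*, a chain of the beaded filament collagen VI, was the most abundant member at 44 ± 4.19 FPKM (SD, n = 6 libraries). It alone made up 43.0% ± 2.02 (SD) of the FPKM summed over all 44 members. The type IV chain *Col4a2* followed at 11.2 ± 0.835 FPKM, and then *Col11a2* at 6.04 ± 0.755 FPKM, a fibrillar chain best known from cartilage. *Col9a2*, *Col16a1* and *Col6a2* held 4.17 ± 0.359, 4.07 ± 0.341 and 3.93 ± 0.435 FPKM (SD), which differed by less than their spread. *Col1a1* and *Col1a2*, the chains of type I collagen, were in 12th and 10th place at 1.72 ± 0.306 and 1.8 ± 0.108 FPKM, and *Col3a1* was in 32nd place at 0.235 ± 0.0386 FPKM. In all, 28 members were under 1 FPKM in NT + Sham.

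**Figure D1:**
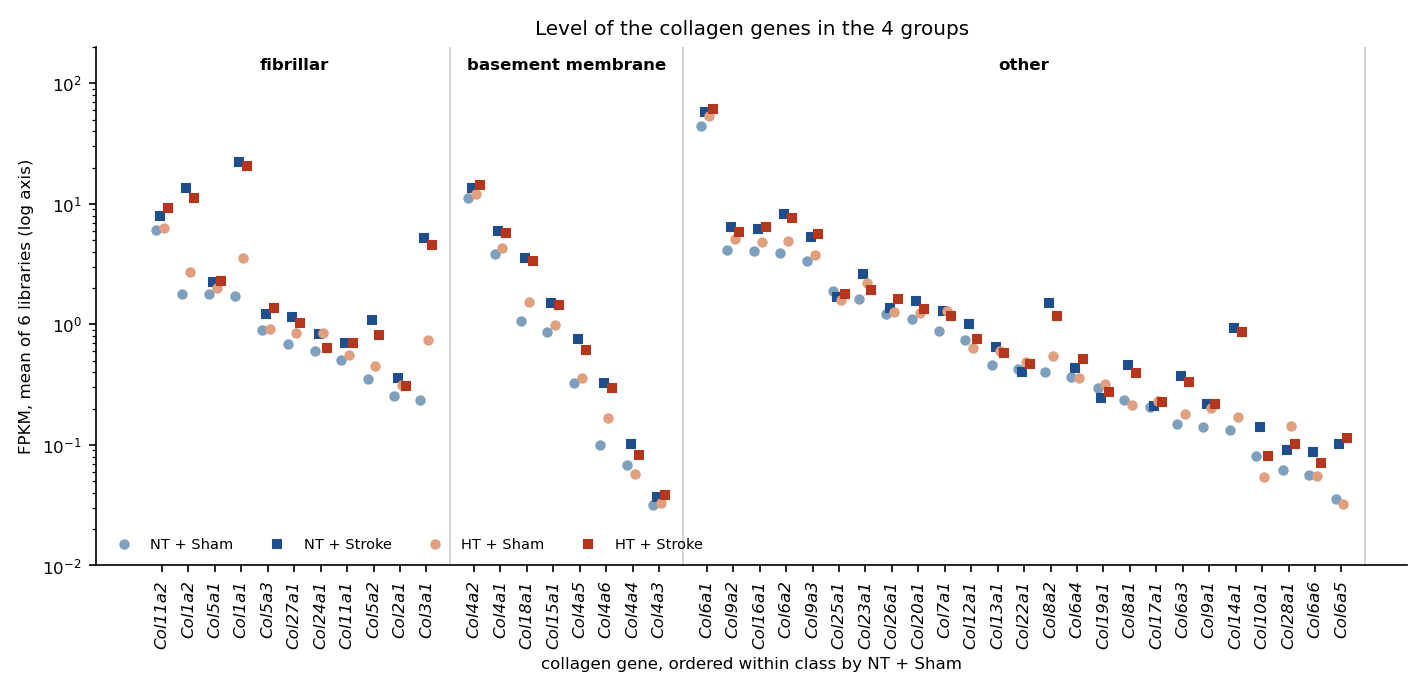
Mean FPKM (log axis, 6 libraries per group) of the 44 collagen genes in the 4 groups, ordered within class by NT + Sham. *Col6a1* stands above every other member in every group, and *Col3a1*, *Col1a1*, *Col14a1* and *Col1a2* show wide gaps between the sham groups (circles) and the stroke groups (squares).

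Stroke in NT mice raised most of the collagen genes measured. Of 40 members that passed the filter on low counts, 26 were higher in NT + Stroke than in NT + Sham and 0 were lower, where 14.4% of all 16835 genes tested were called higher and 11.5% lower. The median log2 fold change was 0.56 over the tested members and -0.01 over all genes. The filter could be passed on the counts of either group, and 36 of the 40 members passed it on the sham libraries alone, of which 25 were called higher, against 13.8% of all genes that passed that way. In 17 of the 40 members every NT + Stroke library was above every NT + Sham library, a pattern that 7.78% of all genes tested showed. Called members were higher in each of the 3 classes. Fibrillar members had 8 of 11 called, with log2 fold changes over a range of 0.30 to 4.41 and a median of 0.45. Basement membrane members had 6 of 7 tested called, with a range of 0.22 to 1.69 and a median of 0.75. Other members had 12 of 22 tested called, with a range of -0.34 to 2.72 and a median of 0.52. With type IV alone as the basement membrane class, 4 of 5 tested members were called, with a median of 0.58. In bulk tissue, more cells of a collagen-making type and more RNA per cell cannot be told apart.

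Among fibrillar collagens, the main scar-forming chains rose most. *Col3a1*, the sole chain of type III collagen (ENSMUSG00000026043, GRCm38 chr1:45311538-45349706, plus strand), whose upstream sequence is shown above, held 1.91, 2.02, 2.3, 2.34, 2.39 and 3.01 CPM in the 6 NT + Sham libraries and 14.7, 34.7, 53.5, 54.2, 56.6 and 84.9 CPM in the 6 NT + Stroke libraries. The lowest stroke library was several times above the highest sham library. The log2 fold change was 4.41 ± 0.42 (SE, adjusted *P* = 2.65e-05), or 21.3-fold. *Col1a1*, which encodes the α1 chain of type I collagen (ENSMUSG00000001506, chr11:94936224-94953042, plus strand), held 8.32, 10.2, 10.5, 12.4, 13.1 and 13.3 CPM in NT + Sham and 47.3, 99.3, 136, 143, 169 and 251 CPM in NT + Stroke. These groups did not overlap either, and library 4 was the lowest of the stroke group for both genes. The log2 fold change of *Col1a1* was 3.64 ± 0.37 (SE, adjusted *P* = 4.61e-05), or 12.4-fold. *Col1a2*, the partner α2 chain (ENSMUSG00000029661, chr6:4504814-4541544, plus strand), had a lowest, median and highest level of 20.3, 22.4 and 23.9 CPM in NT + Sham and 63.4, 156 and 284 CPM in NT + Stroke. It rose by a log2 fold change of 2.85 ± 0.32 (SE, adjusted *P* = 9.07e-05).

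The fibril-nucleating chains of type V moved unequally. *Col5a2* held 2.54, 3.21 and 4.44 CPM (lowest, median, highest) in NT + Sham and 7.34, 9.57 and 13.2 CPM in NT + Stroke, without overlap, and rose by 1.58 ± 0.16 (SE, adjusted *P* = 1.31e-06) on the log2 scale. It had the smallest *P* of the fibrillar class. Its partner *Col5a1* rose less, by 0.30 ± 0.09 (SE, adjusted *P* = 0.0216), and its groups overlapped, at 12.4 to 18 CPM and 16.2 to 20.5 CPM. *Col5a1* shares exon bases with 2 genes on the opposite strand, and whether counting used strand is not given in the sources used here. *Col5a3* and *Col11a1* rose by 0.41 and 0.42 (adjusted *P* = 0.0407 and 0.0258). *Col27a1*, a fibrillar chain of cartilage, held 7.26 to 10.9 CPM in NT + Sham and 12.9 to 16 CPM in NT + Stroke and rose by 0.70 ± 0.11 (SE, adjusted *P* = 9.36e-05). The fibrillar members not called were *Col11a2*, *Col24a1* and *Col2a1*. *Col11a2*, the most abundant fibrillar chain in sham brain, held 33.1, 42.5 and 47 CPM in NT + Sham and 37.2, 56.1 and 65.4 CPM in NT + Stroke, and its log2 fold change was 0.34 ± 0.14 (SE, adjusted *P* = 0.1). *Col24a1* and *Col2a1* had log2 fold changes of 0.43 ± 0.27 (SE) and 0.45 ± 0.22 (SE) (adjusted *P* = 0.276 and 0.148).

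Basement membrane collagens were called in 6 of 7 cases, with log2 fold changes that all lay below those of types I and III. *Col18a1*, the type XVIII chain whose C-terminal end yields endostatin (ENSMUSG00000001435, chr10:77052178-77166548, minus strand), held 6.98, 6.99, 7.06, 7.08, 7.76 and 9.18 CPM in NT + Sham and 16.5, 21.2, 22.3, 24, 26.3 and 35.1 CPM in NT + Stroke. The groups did not overlap, and the log2 fold change of 1.69 ± 0.14 (SE, adjusted *P* = 5.31e-07) had the smallest *P* of all 44 members. *Col15a1*, the related type XV chain, held 3.18 to 6.6 CPM in NT + Sham and 7.83 to 10.7 CPM in NT + Stroke and rose by 0.75 ± 0.14 (SE, adjusted *P* = 0.000768).

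Among the 4 type IV chains called, the abundant pair rose least. *Col4a1* (ENSMUSG00000031502, chr8:11198423-11312826, minus strand), which with *Col4a2* forms the network of vessel basement membranes, held 21.8, 28.9, 29.2, 29.4, 30.2 and 34.3 CPM in NT + Sham and 37.7, 39.7, 41.7, 42.8, 44.8 and 52.2 CPM in NT + Stroke. The groups did not overlap, and it rose by 0.58 ± 0.09 (SE, adjusted *P* = 0.000176). *Col4a2* (ENSMUSG00000031503, chr8:11312805-11449287, plus strand) held 64.1 to 79.4 CPM and 70.9 to 99 CPM, with overlap, and its rise of 0.22 ± 0.08 (SE, adjusted *P* = 0.0432) was the smallest of the called members. That call was lost, at adjusted *P* of 0.0525 to 0.104, when any 1 of 6 of its 12 libraries was left out (libraries 1, 2 and 3 of NT + Sham, and 2, 4 and 6 of NT + Stroke). The first exons of *Col4a1* and *Col4a2* overlap by 22 bases on opposite strands. *Col4a5* and *Col4a6*, the X-linked chains of specialised basement membranes including those of smooth muscle, rose further. *Col4a5* held 1.47 to 2.6 CPM in NT + Sham and 4 to 6.27 CPM in NT + Stroke and rose by 1.14 ± 0.16 (SE, adjusted *P* = 3.15e-05). *Col4a6*, the 1 called member that passed the filter only with stroke libraries, held 0.404, 0.644, 0.807, 0.854, 0.935 and 1.14 CPM and 1.93, 1.97, 2.09, 2.1, 2.55 and 4.44 CPM, without overlap, and rose by 1.64 ± 0.27 (SE, adjusted *P* = 0.000175). *Col4a4*, a chain known from glomerular basement membrane, was not called at 0.55 ± 0.29 (SE) (adjusted *P* = 0.189). Its partner *Col4a3* held 36 counts in all 6 NT + Sham libraries together and 45 in NT + Stroke, did not pass the filter, and shares 5.65% of its exon bases with a gene on the opposite strand.

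Of the other classes, type VI and several FACIT and short-chain members rose. *Col14a1*, a FACIT that binds type I fibrils (ENSMUSG00000022371, chr15:55307750-55520803, plus strand), held 0.544, 0.752, 0.867, 1.06, 1.17 and 1.28 CPM in NT + Sham and 1.52, 5.14, 6.43, 6.63, 7.04 and 11.1 CPM in NT + Stroke. The groups did not overlap, although library 4 of NT + Stroke lay close to the sham libraries, and the log2 fold change was 2.72 ± 0.38 (SE, adjusted *P* = 0.000127). *Col8a2*, a short-chain collagen of endothelial matrices such as Descemet's membrane, held 1.16, 1.8 and 2.46 CPM (lowest, median, highest) in NT + Sham and 3.29, 5.65 and 11 CPM in NT + Stroke and rose by 1.84 ± 0.30 (SE, adjusted *P* = 0.000321). *Col8a1*, its partner, rose by 0.92 ± 0.22 (SE, adjusted *P* = 0.00482), with overlap. *Col16a1*, a FACIT, had the smallest *P* of the other class. It held 24.6, 26.8, 27, 27, 29.9 and 30.5 CPM in NT + Sham and 35, 39, 39.4, 39.8, 43.5 and 44.4 CPM in NT + Stroke, and rose by 0.54 ± 0.07 (SE, adjusted *P* = 1.94e-05). The fibril-decorating type IX chains *Col9a3* and *Col9a2* rose by 0.61 ± 0.09 (SE, adjusted *P* = 8.58e-05) and 0.57 ± 0.10 (SE, adjusted *P* = 0.000388), each without overlap, and 6.07% of the exon bases of *Col9a3* are shared with *Tcfl5* on the opposite strand. The type VII chain *Col7a1*, which forms anchoring fibrils, and the FACIT *Col12a1* rose by 0.49 and 0.40 (adjusted *P* = 0.00541 and 0.0183), with overlap.

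The 3 chains of the type VI heterotrimer moved by different factors. *Col6a1* (ENSMUSG00000001119, chr10:76708792-76726168, minus strand) held 166, 186, 195, 198, 200.4 and 219 CPM in NT + Sham and 215, 234, 237, 241, 258 and 282 CPM in NT + Stroke, and rose by 0.34 ± 0.07 (SE, adjusted *P* = 0.00177). *Col6a2* held 27.5 to 36.9 CPM and 46.7 to 109 CPM and rose by 1.0 ± 0.19 (SE, adjusted *P* = 0.00213). *Col6a3*, whose upstream window is shown above, held 1.06 to 2.67 CPM and 2.84 to 5.47 CPM and rose by 1.25 ± 0.21 (SE, adjusted *P* = 0.00024). *Col6a2* and *Col6a3* did not overlap between groups, and *Col6a1* did. *Col6a4*, a chain that can replace the third chain of type VI, and the related *Col6a6* were not called, and *Col6a5* did not pass the filter, at 39 counts over NT + Sham and 111 over NT + Stroke.

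Of the 4 transmembrane members, 1 was called. *Col25a1*, a transmembrane collagen of neurons that occurs in amyloid plaques (ENSMUSG00000058897, chr3:130131501-130599877, plus strand), held 22.7, 23.8, 24.4, 25, 25.1 and 25.7 CPM in NT + Sham and 15.9, 18, 18.9, 21.3, 25.3 and 26.8 CPM in NT + Stroke, and its log2 fold change was -0.21 ± 0.11 (SE, adjusted *P* = 0.161). It is 1 of 4 members with a fold change below 0, beside the FACITs *Col19a1* and *Col22a1* and the transmembrane *Col17a1* at -0.34, -0.13 and -0.01 on the log2 scale, and none of the 4 was called (adjusted *P* = 0.161, 0.424, 0.651 and 0.981). Without library 3 of NT + Stroke, *Col25a1* was called lower, at -0.30 (adjusted *P* = 0.0372). *Col23a1* was the transmembrane member called, and rose by 0.65 ± 0.20 (SE, adjusted *P* = 0.0277). The transmembrane *Col13a1*, the FACITs *Col20a1* and *Col9a1*, and *Col26a1* had log2 fold changes of 0.43, 0.45, 0.59 and 0.14 and were not called. *Col10a1* and *Col28a1* did not pass the filter, with 29 and 35 counts over the NT + Sham libraries and 51 and 52 over NT + Stroke.

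**Figure D2:**
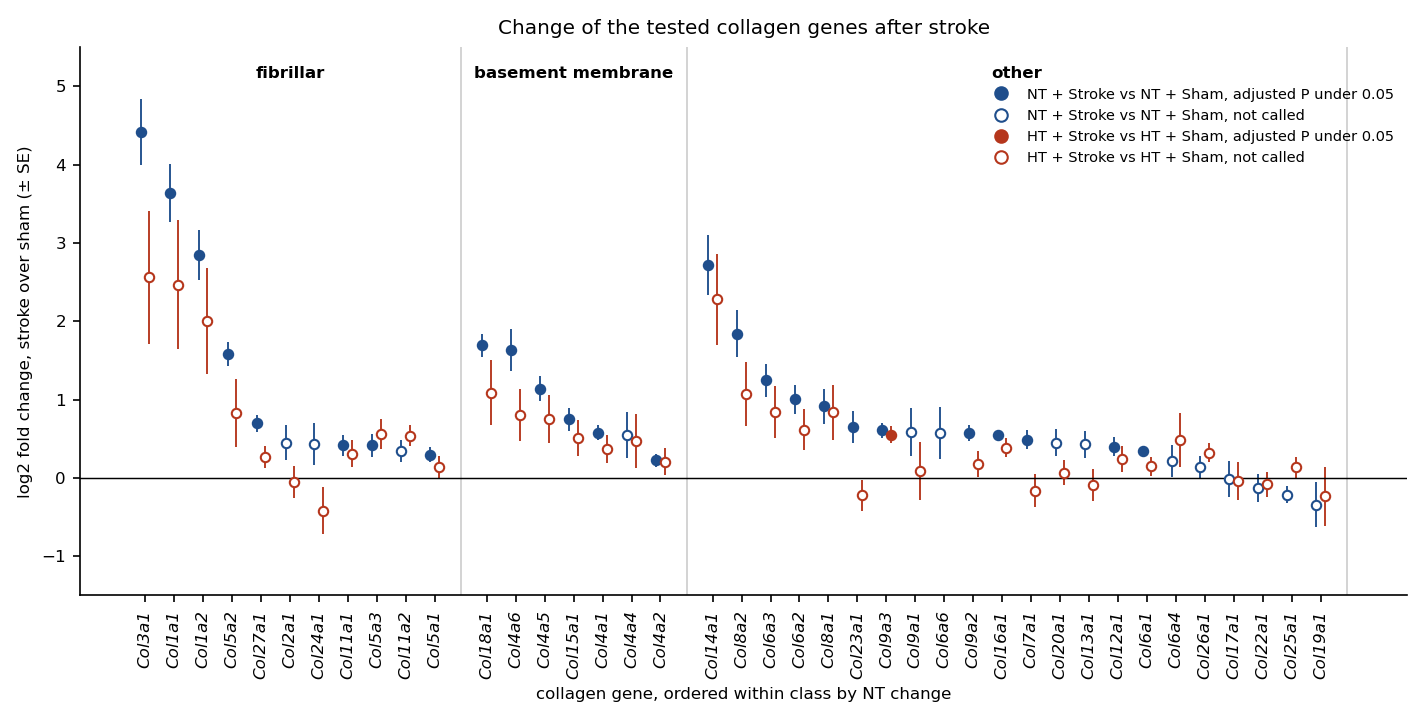
Log2 fold change (± SE) of stroke over sham for the 40 collagen genes tested in NT mice, with the HT change beside it where tested, and filled points for an adjusted *P* under 0.05. In NT mice (blue) 26 points are filled and all lie above 0, and in HT mice (red) the 1 filled point is *Col9a3*.

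Members that lie next to each other in the genome were read side by side, as 8 adjacent pairs of members lie within 100 kb. *Col3a1* and *Col5a2* lie with their ends facing, 24614 bases apart on chromosome 1, and had log2 fold changes of 4.41 and 1.58. *Col4a6* and *Col4a5*, with starts 1308 bases apart, had 1.64 and 1.14. *Col4a1* and *Col4a2* had 0.58 and 0.22. *Col9a1* and *Col19a1*, 9205 bases apart with ends facing, differed in sign at 0.59 and -0.34, neither called.

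The make-up of the collagen message changed with it. FPKM summed over the 44 members was 102.4 ± 6.64 (SD, n = 6) in NT + Sham and 180.9 ± 29.2 in NT + Stroke, and the ranges of 95.3 to 113.5 and 154.4 to 233.2 did not overlap. The fibrillar share of that sum was 14.5% ± 0.732 in NT + Sham and 30.4% ± 6.51 in NT + Stroke, again without overlap. The basement membrane share was 17.1% ± 1.60 and 14.3% ± 1.28, although its summed FPKM was 17.5 ± 1.55 and 25.7 ± 3.12. The share of *Col6a1* was 43.0% ± 2.02 in NT + Sham and 32.2% ± 4.14 in NT + Stroke. By FPKM rank among the members, *Col1a1* moved from 12th to 2nd, *Col1a2* from 10th to 4th and *Col3a1* from 32nd to 11th. These shares follow from the members' own changes and carry no test of their own.

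The ratio of partner chains differed between the groups without overlap for *Col1a1* to *Col1a2*, and overlapped for types IV, VI and IX. Type I collagen is mostly made of a pair of α1 chains and 1 α2 chain. The ratio of *Col1a1* to *Col1a2* FPKM was 0.95 ± 0.123 (SD) in NT + Sham, with a range of 0.775 to 1.07, and 1.64 ± 0.177 in NT + Stroke, with a range of 1.41 to 1.91. The ratio of *Col3a1* to *Col1a1*, chains of different trimers, was 0.14 ± 0.0306 and 0.235 ± 0.0253 in FPKM, also without overlap. The ratio of *Col4a1* to *Col4a2* FPKM was 0.344 ± 0.0295 in NT + Sham and 0.444 ± 0.0407 in NT + Stroke, with overlapping ranges of 0.301 to 0.390 and 0.376 to 0.479. That of *Col6a1* to *Col6a2* was 11.2 ± 0.765 and 7.56 ± 2.07, and these ranges overlapped too. That of *Col9a2* to *Col9a3* was 1.24 ± 0.0513 and 1.23 ± 0.297, with the NT + Sham range inside that of NT + Stroke. FPKM ratios depend on the gene lengths used by the authors, so they are read here between groups and not as numbers of molecules.

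**Figure D3:**
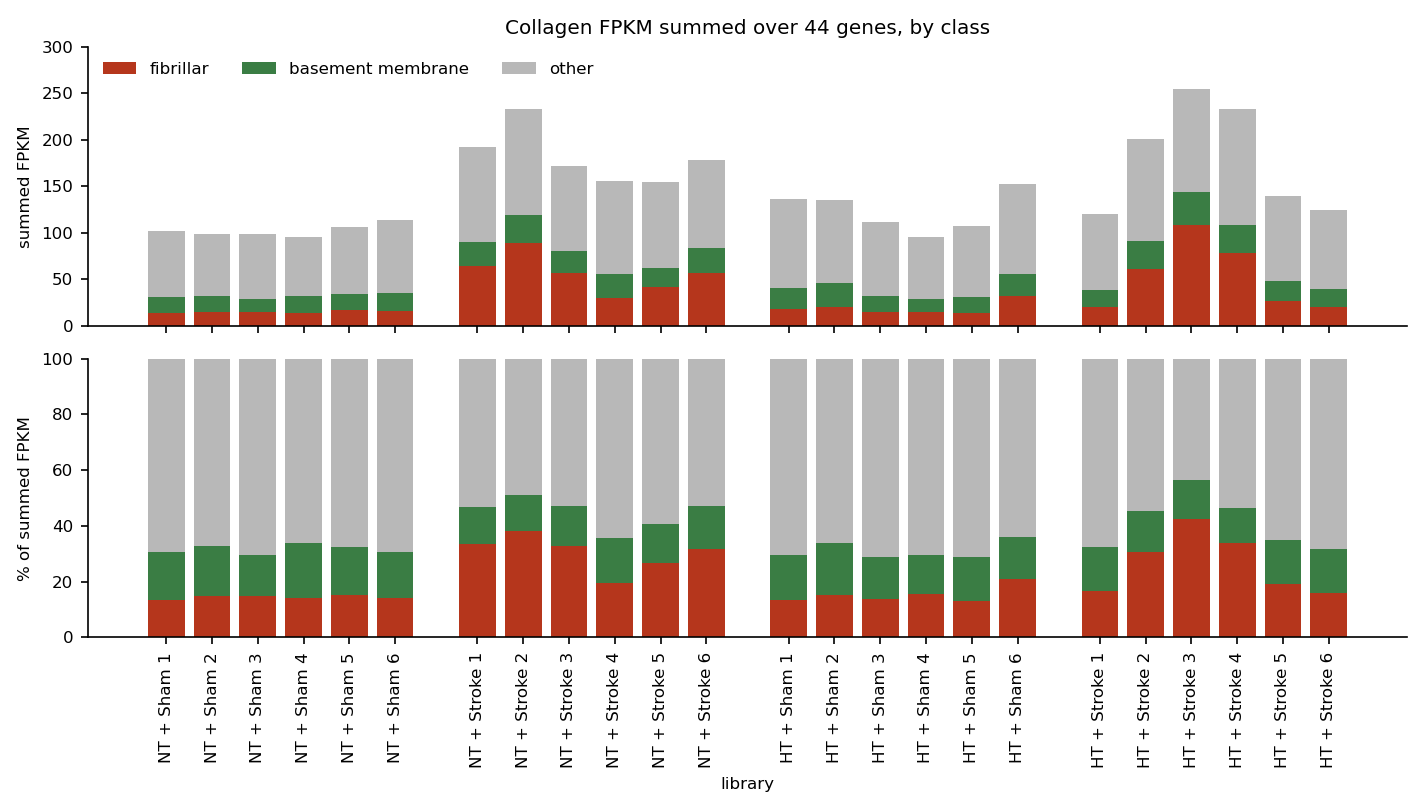
FPKM summed over the 44 collagen genes in each library (upper panel) and the share of each class in it (lower panel, % of summed FPKM). The fibrillar share is 13.3% to 15.4% in the 6 NT + Sham libraries and 19.4% to 38.1% in the 6 NT + Stroke libraries. In HT mice the groups overlap, at 13.0% to 21.1% in HT + Sham and 16.1% to 42.7% in HT + Stroke, with the highest in library 3.

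In HT mice, stroke was followed by changes of the same sign in most of these genes but with a wider spread, and 1 of 40 tested members was called. The background was 0.544% of all 16741 genes called higher, and 0.102% lower. An unadjusted *P* under 0.05 was reached by 17 of the 40 members, against 17.0% of all genes tested. DESeq2 called 7 members, beside 4.88% of all genes to which it gave an adjusted *P*, and a fit of all 4 groups together called 9, beside 6.39% of all genes. The called gene was *Col9a3* (ENSMUSG00000027570, chr2:180597790-180622189, plus strand), which held 12.2, 13.2, 14, 14.9, 15.6 and 16.3 CPM in HT + Sham and 16.5, 19, 20.01, 22, 23.3 and 24.9 CPM in HT + Stroke. Every HT + Stroke library was above every HT + Sham library, with a smallest gap of 16.3 to 16.5 CPM, and 0.579% of all genes tested showed no overlap in that direction. The log2 fold change was 0.55 ± 0.11 (SE, adjusted *P* = 0.031). The call was lost, at adjusted *P* of 0.0602 to 0.109, when library 1, 2, 3 or 4 of HT + Sham or library 2 or 4 of HT + Stroke was left out. The exon bases it shares with *Tcfl5* apply here too.

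The large fold changes of NT mice were mostly smaller and far less certain in HT mice. *Col1a1* held 8.62, 15.1, 15.4, 18.1, 21.7 and 60.1 CPM in HT + Sham and 17.4, 19.9, 40.4, 161, 219.7 and 306 CPM in HT + Stroke. Libraries 1, 5 and 6 of HT + Stroke lay within the range of HT + Sham, whose highest library was 6, and libraries 2, 3 and 4 lay above it. The log2 fold change was 2.47 ± 0.82 (SE, adjusted *P* = 0.167), with an approximate 95% interval of 0.85 to 4.08. *Col3a1* held 2.79, 3.32, 4.24, 4.65, 10.7 and 17.5 CPM and 4.95, 7.73, 12.8, 51.4, 64.4 and 112 CPM, with the same 3 stroke libraries inside the range of HT + Sham, and a log2 fold change of 2.56 ± 0.85 (SE, adjusted *P* = 0.163). *Col14a1* was at 2.28 ± 0.58 (SE, adjusted *P* = 0.086), and was called when library 1 of HT + Stroke was left out, at 2.49 (adjusted *P* = 0.0259). *Col1a2*, *Col18a1* and *Col5a2* were at 2.0, 1.09 and 0.83 on the log2 scale (adjusted *P* = 0.175, 0.21 and 0.36). *Col4a1* and *Col6a1* were at 0.37 and 0.15 (adjusted *P* = 0.301 and 0.571). *Col11a2*, not called in NT mice, was at 0.54 ± 0.13 (SE, adjusted *P* = 0.072), with 32.7 to 55.5 CPM in HT + Sham and 49.2 to 75.1 CPM in HT + Stroke.

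Of the 26 members called in NT mice, 24 had a log2 fold change above 0 in HT mice, and 15 had an unadjusted *P* under 0.05. The HT change was smaller than the NT change in 25 of the 26, but these members had been picked for a called change in NT mice, which by itself favours the larger value there. The median over the 26 was 0.72 in NT and 0.56 in HT mice. For the 8 fibrillar members among them the medians were 1.14 and 0.69, for the 6 basement membrane members 0.94 and 0.63, and for the 12 others 0.63 and 0.47. The members with a fold change below 0 in HT mice were *Col23a1* and *Col7a1*, at -0.22 and -0.16 (adjusted *P* = 0.626 and 0.76).

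Among the 26 members called in NT mice, the median spread between libraries was largest in HT + Stroke. Over the same 26 genes the median coefficient of variation of CPM was 16.6% in NT + Sham, 19.0% in NT + Stroke, 24.5% in HT + Sham and 33.2% in HT + Stroke. It was highest for *Col3a1* in HT + Stroke, at 100.1%, against 47.3% in NT + Stroke. The 26 genes had been picked for a called change between the NT groups, and that test favours genes with a small spread within those groups. Their lower spread in NT than in HT mice may therefore come in part from the choice of genes. The spread over all members or all genes is not given here, so the size of that part was not tested. Library 3 of HT + Stroke was above every NT + Sham library in 26 of the 26 genes, library 6 in 16 and library 1 in 8. Library 6 of HT + Sham was above every NT + Sham library in 21 of the 26. No library was removed on this ground, since that would pick samples by the outcome.

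**Figure D4:**
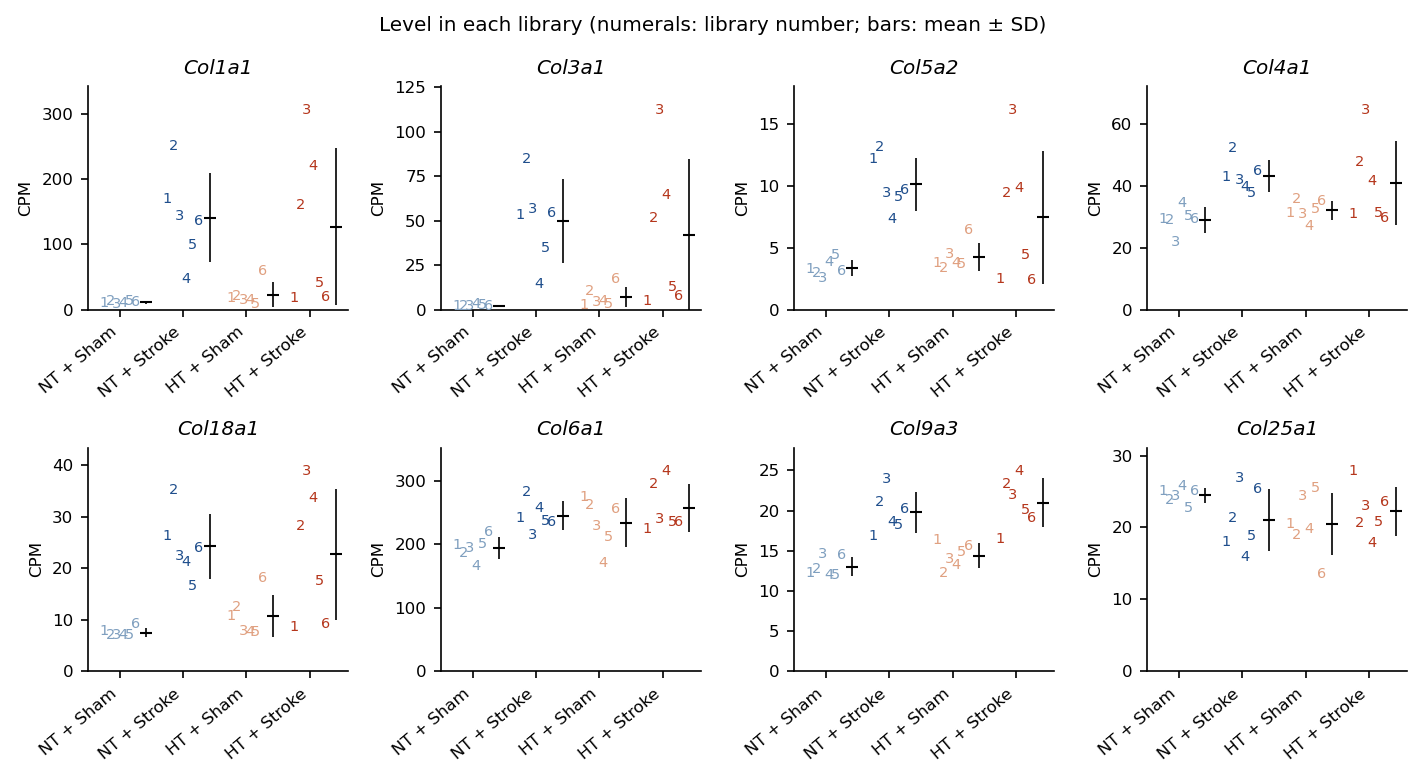
CPM (axes from 0) of 8 collagen genes in each of the 24 libraries, with numerals for the library number and black marks for the mean ± SD. For *Col1a1* the NT + Stroke libraries lie between 47.3 and 251 CPM, all above NT + Sham, whereas libraries 1 and 6 of HT + Stroke lie at 17.4 and 19.9 CPM, within the range of HT + Sham, and for *Col25a1* the 4 groups overlap.

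Angiotensin II without stroke gave no called collagen gene. Of 39 members tested in HT + Sham vs NT + Sham, 0 were called by edgeR, as were 0 of all 16581 genes, and DESeq2 also called 0 members. The share of all genes that DESeq2 called in this comparison is not given here, so its count has no background beside it. The paper, using DESeq, reported differentially expressed genes between these groups. An unadjusted *P* under 0.05 was reached by 11 of the 39, against 8.03% of all genes. The median log2 fold change was 0.21 over the members and -0.0014 over all genes, and 34 of the 39 were above 0. The share of all genes above 0 is not given here, and the members were measured in the same libraries. Library 6 of HT + Sham was above every NT + Sham library in 27 of the 44 members. The part of that library in the shift was not tested. The members with the smallest *P* were *Col3a1*, *Col7a1* and *Col4a6*. *Col3a1* held 1.91, 2.02, 2.3, 2.34, 2.39 and 3.01 CPM in NT + Sham and 2.79, 3.32, 4.24, 4.65, 10.7 and 17.5 CPM in HT + Sham, with a log2 fold change of 1.64 ± 0.45 (SE, adjusted *P* = 0.415). Library 6, the highest, moved this value, which was 1.14 without it. *Col7a1* held 8.03 to 10.2 CPM in NT + Sham and 8.25 to 20.7 CPM in HT + Sham, with 0.53 ± 0.17 (SE, adjusted *P* = 0.435). *Col4a6* held 0.404 to 1.14 CPM and 0.802 to 1.57 CPM, at 0.73 ± 0.26 (SE, adjusted *P* = 0.472). In each of the 3 genes the groups overlapped.

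After stroke, no collagen gene was called between HT and NT mice. Of 41 members tested in HT + Stroke vs NT + Stroke, 0 were called by edgeR or by DESeq2, as were 0 of all 17008 genes by edgeR. For DESeq2 the share of all genes called is not given here either. Between these groups too, the paper reported differentially expressed genes by DESeq. An unadjusted *P* under 0.05 was reached by 1 member, *Col12a1*, against 7.23% of all genes, and that count is below the background. *Col12a1* held 11.7, 14.4, 14.8, 14.9, 16.9 and 17 CPM in NT + Stroke and 7.86, 8.49, 9.3, 11.8, 12.5 and 17 CPM in HT + Stroke, and its log2 fold change was -0.42 ± 0.17 (SE, adjusted *P* = 0.654). *Col23a1* and *Col20a1*, a FACIT, followed at -0.44 and -0.24 (adjusted *P* = 0.654 and 0.66). The intervals stayed wide for the chains of scar. The difference in *Col1a1* was -0.15 with an approximate 95% interval of -1.58 to 1.28 on the log2 scale, and that in *Col3a1* was -0.23 with -1.66 to 1.2. For *Col4a1* the interval was narrower, at -0.42 to 0.27 around -0.08.

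The difference between the stroke effects of HT and NT mice was tested directly by the interaction term over all 24 libraries. Of 42 members tested, 0 were called by edgeR or DESeq2, as were 0 of all 17608 genes by edgeR and 0.131% of genes by DESeq2. An unadjusted *P* under 0.05 was reached by 3 members, against 10.4% of all genes, and that count is below the background. These were *Col23a1*, *Col7a1* and *Col27a1*, which are described only as the members with the smallest *P*. For *Col23a1* the stroke effect was 0.65 in NT and -0.22 in HT mice, and the interaction was -0.88 ± 0.30 (SE, adjusted *P* = 0.332). It held 6.1, 9.62 and 12.1 CPM (lowest, median, highest) in NT + Sham, 10.7, 14 and 20.6 CPM in NT + Stroke, 9.2, 12.2 and 18.4 CPM in HT + Sham and 6.83, 11 and 14 CPM in HT + Stroke. For *Col7a1* the effects were 0.49 and -0.16 with an interaction of -0.65 ± 0.25 (SE, adjusted *P* = 0.386), and for *Col27a1* 0.70 and 0.27 with -0.43 ± 0.18 (SE, adjusted *P* = 0.409). The interaction was below 0 in 34 of the 42 members, with a median of -0.32, against 0.0033 over all genes. The share of all genes with an interaction below 0 is not given here. For *Col1a1* the interaction was -1.18, with an approximate 95% interval of -2.90 to 0.54, and for *Col3a1* it was -1.86, with -3.76 to 0.04.

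The genes that make, process, bind and sense collagen rose with it in NT mice. Of 69 such genes in 5 lists, 65 were tested in NT + Stroke vs NT + Sham, and 45 rose and 0 fell, beside the 14.4% of all genes called higher. On the sham libraries alone 61 of the 65 passed the filter. Of those, 42 rose, against 13.8% of all genes that passed that way. Among enzymes and chaperones of biosynthesis and folding, 9 of 19 rose, with a median log2 fold change of 0.29. *Serpinh1*, the collagen chaperone HSP47, held 18.1, 21.5 and 23.5 CPM (lowest, median, highest) in NT + Sham and 41.9, 54.7 and 82.2 CPM in NT + Stroke and rose by 1.43 ± 0.15 (SE, adjusted *P* = 8.63e-06). The lysyl hydroxylase *Plod1* and the prolyl hydroxylase subunit *P4ha3* rose by 0.76 and 1.10 (adjusted *P* = 6.69e-06 and 9.66e-06).

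Among genes of extracellular processing and crosslinking, 8 of 11 tested rose. Of these 11, 8 passed the filter on the sham libraries alone, and 5 of those rose. *Loxl1*, of the lysyl oxidases that crosslink fibrils, and *Pcolce*, which enhances removal of the C-terminal propeptide, rose by 1.82 and 1.29 (adjusted *P* = 2.15e-06 and 2.11e-05). *Lox*, *Loxl2* and *Adamts14* passed only with stroke libraries, where a low gene had to be higher to enter. *Lox* held 0.151 to 0.599 CPM in NT + Sham, or 3 to 11 counts a library, and 1.6 to 5.28 CPM in NT + Stroke, and its log2 fold change was 2.92 ± 0.33 (SE, adjusted *P* = 5.99e-06). Of the proteoglycans and glycoproteins that bind fibrils, 12 of 12 rose, with a median of 1.22. *Sparc*, a collagen-binding glycoprotein, held 179, 187 and 203 CPM in NT + Sham and 323, 364 and 443 CPM in NT + Stroke and rose by 1.01 ± 0.07 (SE, adjusted *P* = 7.83e-08). The small leucine-rich proteoglycans *Dcn* and *Bgn* rose by 2.47 and 1.68 (adjusted *P* = 8.61e-07 and 3.67e-06).

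Of the collagen receptors, 7 of 8 tested rose, with a median of 0.56. The discoidin domain receptors *Ddr1* and *Ddr2* rose by 0.49 and 0.90, and the inhibitory leukocyte receptor *Lair1* rose by 0.87 (adjusted *P* = 1.58e-05, 3.94e-05 and 4.91e-05). Of the basement membrane partners, 9 of 15 rose, with a median of 0.44. *Nid1*, which links type IV collagen to laminin, held 4.97 to 6.78 CPM in NT + Sham and 14.8 to 21.4 CPM in NT + Stroke and rose by 1.52 ± 0.11 (SE, adjusted *P* = 7.83e-08). The perlecan gene *Hspg2* and the laminin chain *Lama5* rose by 0.97 and 0.50 (adjusted *P* = 1.78e-06 and 0.000246). In HT + Stroke vs HT + Sham, 0 of 65 tested genes of the 5 lists were called by edgeR, 24 had an unadjusted *P* under 0.05, against 17.0% of all genes, and DESeq2 called 6, against its 4.88%. In HT + Sham vs NT + Sham and in HT + Stroke vs NT + Stroke, 0 of 63 and 0 of 65 were called, with 13 and 4 at an unadjusted *P* under 0.05, against 8.03% and 7.23% of all genes, and the second count is near that background.

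**Figure D5:**
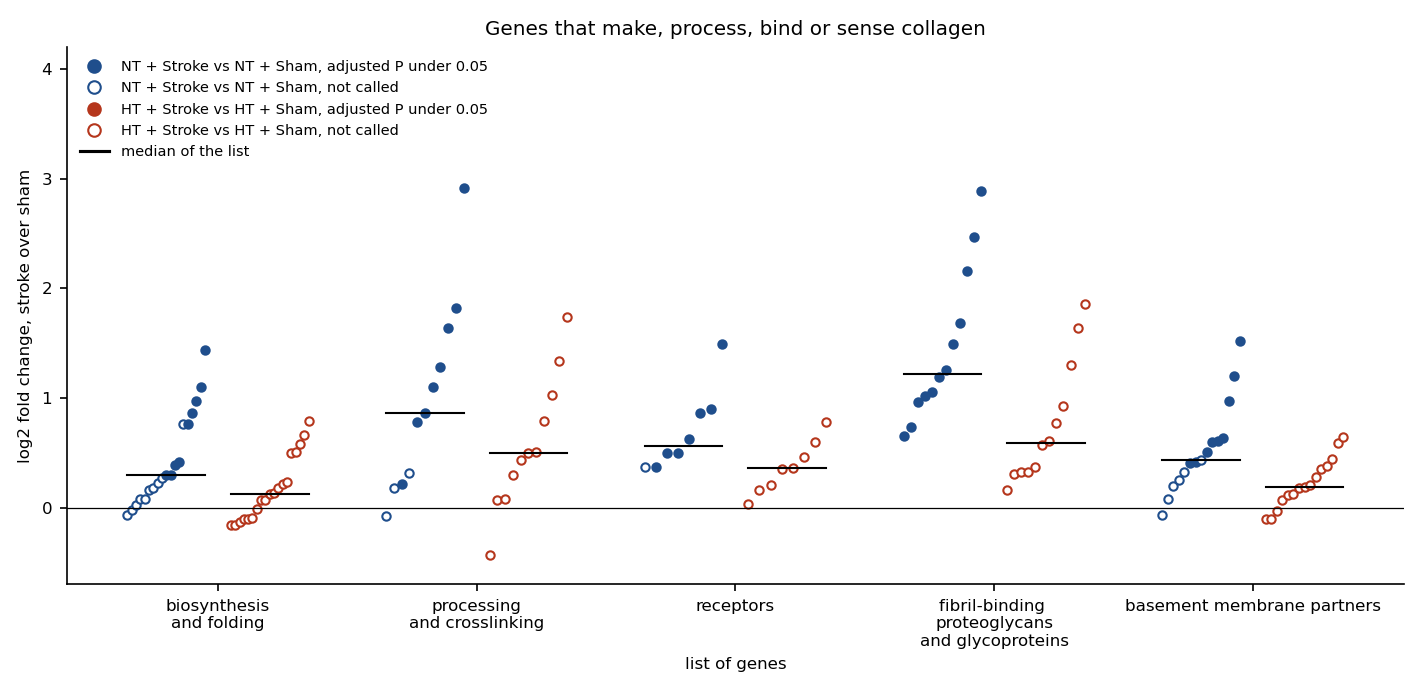
Log2 fold change of stroke over sham for the tested genes of 5 lists of collagen-related genes, in NT (blue) and HT (red) mice, with filled points for an adjusted *P* under 0.05 and a black line for the median of a list. In NT mice 45 points are filled, all above 0, with 12 of 12 among fibril-binding proteins, and in HT mice none is filled.

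Fibroblast, microglial and astrocyte markers moved with the collagen genes, and few markers in the endothelial and mural lists did. Of 8 fibroblast markers, 8 rose in NT + Stroke, and their summed level was 88.8 to 114.3 CPM in NT + Sham and 194.6 to 393.2 CPM in NT + Stroke, although *Dcn*, *Lum* and *Ogn* are also in the list of fibril-binding proteins. The fibroblast list also holds *Pdgfrb*, which marks mural cells as well and rose by 0.66 ± 0.08 (SE, adjusted *P* = 6.56e-06). The contrast with the mural list therefore depends on where that gene is placed. Of 6 endothelial markers, 2 rose (*Cldn5* and *Cdh5*), with a summed level of 169.9 to 192.8 and 190.7 to 225.1 CPM. Of 5 mural cell markers tested, 1 rose (*Myh11*), at 132.6 to 152.5 and 139.9 to 164.7 CPM. Microglia and macrophage markers rose in 5 of 6, at 172.9 to 202.6 and 326.9 to 654.3 CPM, and astrocyte markers in 4 of 4, at 496.4 to 622.9 and 1092 to 1509 CPM. Of 4 neuronal markers, 2 fell (*Snap25* and *Slc17a7*), and the summed level of the 4 was 5968 to 6489 and 4524 to 5396 CPM. The neuronal markers *Rbfox3* and *Gad1* differed in sign, at log2 fold changes of -0.23 and 0.46 (adjusted *P* = 0.0552 and 0.0688), neither called. Bone and cartilage markers rose in 3 of 3 tested, at 6.93 to 15.5 and 13.7 to 37.2 CPM, with 2 more below the filter. Choroid plexus markers rose in 1 of 4 tested, oligodendrocyte markers in 1 of 3, and of skeletal muscle and skin markers the 1 tested (*Acta1*) fell. The part of these cell types in the collagen results was not tested.

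In HT mice the summed fibroblast markers were 88.9 to 194.4 CPM in HT + Sham, with the highest in library 6, and 112.5 to 323.6 CPM in HT + Stroke, with the lowest in library 1 and the highest in library 3. Astrocyte markers were highest in HT + Sham in library 6, at 1038 CPM, and lowest in HT + Stroke in library 6, at 605.3 CPM, next to 611.4 CPM in library 1. Microglia and macrophage markers were highest in HT + Sham in library 6 too, at 296.8 CPM, and in HT + Stroke lay between 222.7 CPM in library 6 and 714.8 CPM in library 4. Summed bone and cartilage markers went the other way from NT mice, with a median of 20.7 CPM in HT + Sham and 13.0 CPM in HT + Stroke. Of those tested, *Sp7* and *Acan* were at log2 fold changes of -0.96 and -0.38, but *Comp* was at 0.98 (adjusted *P* = 0.351, 0.468 and 0.183). None of them was called, and the untested *Ibsp* and *Bglap* had higher means in HT + Stroke than in HT + Sham. Oligodendrocyte markers had 2 of 3 called higher in HT + Stroke vs HT + Sham (*Mbp* and *Mog*), beside 0.544% of all genes tested. Of the other 9 lists none had a called gene. In HT + Sham vs NT + Sham and HT + Stroke vs NT + Stroke no marker was called, and neither was any other gene tested.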

How the data were processed

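RNA sequencing libraries of poly(A) RNA from brain sections were made for 24 libraries in 4 groups. The deposited counts are whole reads assigned to each gene, without normalization, from reads that were mapped by the authors to Ensembl's mouse genome. The submitters' processing notes list featureCounts 1.5.0-p3 and DESeq2 1.20.0. The aligner, the build and the use of strand in counting are not given in the sources used here, and all 44 collagen genes lie where GENCODE mouse release 21 (GRCm38) places them. Deposited FPKM are these counts divided by gene length and library size. The tables also hold the authors' fold changes and *P* values, 48 columns of normalized counts and 8 of group means, which were not used. Counts from 4 tables were joined by gene identifier.

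Tests used edgeR 4.0.16 in R 4.3.3 (filterByExpr with a minimum count of 10 and a minimum total of 15, TMM scaling, robust two-sided quasi-likelihood test, Benjamini-Hochberg adjustment over all genes tested, threshold 0.05), on the libraries of the 2 groups compared or all 4 for the interaction. HT + Stroke vs NT + Sham, which differs in both factors, was not tested here. Depth was 15922919 to 24865998 counts per library. DESeq2 1.42.0, limma 3.58.1 on log2(FPKM + 1) and log2(FPKM + 0.1), other scalings and filters, a fit of all 4 groups, the column number as a block and each library left out in turn were the alternatives. The scripts were tested on simulated data. Named genes are, per class, up to 6 called members with the smallest *P* and 2 of highest FPKM not called, 3 per hypertension comparison and 3 per related list, and further members are named to account for all 44. The members, classes, lists and naming rule were chosen with earlier results of these data known, so their counts are described beside those of all genes and not tested as sets.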

Additional observations from a re-analysis of the deposited data

Results flagged for a closer look

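A library was marked where its gap to the nearest library of its group, as a share of the group's range, passed Dixon's 95% limit for 6 libraries. Chance alone marks about 1 in 20 groups, and 176 groups (44 genes in 4 groups) were examined. The test marked 19 values.

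In HT + Sham, library 6 was marked as the highest for 6 members. It held 60.1 CPM of *Col1a1* (others 8.62 to 21.7), 76.0 CPM of *Col1a2* (19.4 to 32.4), 8.97 CPM of *Col20a1* (5.05 to 6.22), 18.4 CPM of *Col23a1* (9.20 to 12.6), 11.9 CPM of *Col24a1* (3.33 to 6.05) and 6.42 CPM of *Col5a2* (3.40 to 4.47). Summed fibroblast and astrocyte markers were also highest of the group in that library, at 194.4 and 1038 CPM. Library 2 of HT + Sham was the lowest for *Col4a6*, at 0.802 CPM (others 1.29 to 1.57), and library 4 the highest for *Col6a5*, at 0.604 CPM (0.185 to 0.321), a gene near the limit of detection.

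In HT + Stroke, library 3 was the highest for *Col6a3*, at 8.47 CPM (others 1.65 to 4.09), and for *Col8a2*, at 12.3 CPM (2.22 to 5.80). Library 4 was the highest for *Col26a1*, at 14.9 CPM (11.7 to 12.9).

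In NT + Sham, library 3 was the lowest for *Col15a1*, at 3.18 CPM (others 5.44 to 6.60), and for *Col4a2*, at 64.1 CPM (74.5 to 79.4). Library 6 was the highest for *Col18a1*, at 9.18 CPM (6.98 to 7.76), and library 2 the lowest for *Col4a5*, at 1.47 CPM (2.20 to 2.60). Library 5 was the highest for *Col2a1*, at 3.55 CPM (1.87 to 2.43). In NT + Stroke, library 1 was the highest for *Col4a6*, at 4.44 CPM (1.93 to 2.55), library 2 the highest for *Col6a2*, at 109 CPM (46.7 to 67.2), and library 3 the lowest for *Col9a1*, at 0.383 CPM (1.05 to 1.38).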

How the results depend on the processing

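In NT + Stroke vs NT + Sham, 21 to 29 collagen genes were called higher over 8 alternatives and 22 to 27 with a library left out, beside 26 as reported. Angiotensin II in sham mice, angiotensin II in stroke mice and the interaction gave 0 called members under every alternative run. In HT + Stroke vs HT + Sham, 1 collagen gene was called as reported, 7 by DESeq2 (*Col9a3*, *Col14a1*, *Col11a2*, *Col3a1*, *Col1a1*, *Col6a5* and *Col1a2*), 9 with all 4 groups in one fit (the same 7, *Col16a1* and *Col18a1*), 0 with library size alone (adjusted *P* = 0.0531 for *Col9a3*), and 0 to 2 with a library left out. The listed collagen-related genes called there were 0 as reported, 6 by DESeq2 and 9 in the one fit. Why they moved was not tested. No value reversed its direction. In the one fit the NT calls of *Col5a1* (0.29, adjusted *P* = 0.0894) and *Col4a2* (0.22, adjusted *P* = 0.298) were lost, and with library size alone *Col11a2* was called in NT mice (0.41, adjusted *P* = 0.0363), as it was without library 1 or 5 of NT + Stroke (0.44 and 0.42). The sample labels number no replicates, but the tables' columns number the libraries of each group, and a fit with that number as a replicate block was added after the data were seen. It called 27 collagen genes in NT + Stroke vs NT + Sham and 0 in HT + Stroke vs HT + Sham (*Col9a3* at 0.55, adjusted *P* = 0.0894), 0 in the other 3 comparisons, and 47 and 0 listed collagen-related genes for stroke in NT and HT mice. The shares of all genes called in the block fit, and in the settings that gave 21 to 29 and 22 to 27 members, are not given here. These counts therefore have no background beside them. Libraries with the same number did not all deviate together, at a correlation of -0.104 to 0.277 over 6 pairs in the NT and -0.48 to 0.223 in the HT stroke comparison, so the number was not taken as a pairing. Depth limits *Col4a3*, *Col10a1*, *Col28a1* and *Col6a5*, with under 120 counts per group.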
